A study of Mus musculus with 54 samples.

Results

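The NF-kB subunits are the 5 genes of the Rel homology family, Nfkb1, Nfkb2, Rel, Rela and Relb, taken by symbol out of the 52636 gene identifiers counted in mouse bone marrow-derived macrophages. All 5 genes were found, and all 5 passed the filter on low counts that left 14970 genes in the tests. The macrophages were grown from bone marrow with M-CSF. They were wild-type (WT, from C57BL/6N mice per the labels) or knockout for N4bp1 (KO, strain and age not given in the sources used here). N4bp1 encodes a cytoplasmic protein that restrains cytokine production in macrophages, and the series asks how it and caspase-8 bear on the IkB kinases. Cells of each genotype were left untreated or received Pam3 (Pam3CSK4, a synthetic lipopeptide sensed by Toll-like receptor 2) or R837 (imiquimod, sensed by Toll-like receptor 7) for 2, 4, 6 or 8 h, which gives 18 groups of 3 polyA RNA-seq libraries, 54 in all. The labels describe bone marrow of individual mice as the biological replicates and no selection of macrophages after culture.

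NF-kB is a family of dimeric transcription factors held in the cytoplasm of resting cells by IkB proteins. In the canonical pathway a Toll-like receptor activates the IkB kinase complex, the IkB proteins are degraded, and dimers of p50 (made from Nfkb1) with RelA or c-Rel enter the nucleus. In the non-canonical pathway the kinase NIK (Map3k14) drives processing of the Nfkb2 product p100 to p52, which pairs with RelB. In macrophages these dimers drive inflammatory genes, and several genes of the family are known to be targets of NF-kB themselves. The counts measured here are of mRNA and say nothing of protein, processing or location in the nucleus.

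In GRCm38, Nfkb1 (ENSMUSG00000028163) lies on chromosome 3 from 135584655 to 135691547 on the minus strand, and Nfkb2 (ENSMUSG00000025225) on chromosome 19 from 46304320 to 46312385 on the plus strand. Rel (ENSMUSG00000020275) lies on chromosome 11 from 23736847 to 23770970 on the minus strand. Rela (ENSMUSG00000024927) lies on chromosome 19 from 5637483 to 5648130 on the plus strand, and Relb (ENSMUSG00000002983) on chromosome 7 from 19606217 to 19629438 on the minus strand. The deposited counts cover exons. Exons of Nfkb2 share 299 bases with the antisense gene Psd, which had 77 counts in all 54 libraries together, and 531 bases with the antisense transcript AC114539.1, which was not analysed here. No source used here gives a strand setting for the counting, so reads from these overlaps cannot be told apart.

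The upstream sequences of the members are shown because the family binds a known decamer. RefSeq windows of 250 bases before an annotated start (GRCm38.p6) were at hand for 3 of the 5 members, namely Nfkb2, Rel and Rela, with 5 starts in all. The search used the NF-kB decamer consensus on both strands. It is present in 3.9% of 32851 such windows of all genes, 1281 in number. A match is a run of letters and not a measured binding site. Capitals mark the matches, and overlapping matches were merged.
Rel, chr11:23770971-23771219, minus strand, 249 bases: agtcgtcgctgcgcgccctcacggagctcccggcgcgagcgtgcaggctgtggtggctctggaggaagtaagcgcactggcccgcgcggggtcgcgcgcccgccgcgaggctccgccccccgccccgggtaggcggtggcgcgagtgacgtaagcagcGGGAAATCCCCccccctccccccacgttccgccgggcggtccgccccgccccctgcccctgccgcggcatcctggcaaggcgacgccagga
Rela, chr19:5637291-5637482, plus strand, 192 bases: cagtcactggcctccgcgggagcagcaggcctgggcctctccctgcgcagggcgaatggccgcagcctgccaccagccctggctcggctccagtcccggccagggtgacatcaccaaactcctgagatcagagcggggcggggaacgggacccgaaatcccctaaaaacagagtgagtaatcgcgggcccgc
Nfkb2, first start, chr19:46304689-46304717, plus strand: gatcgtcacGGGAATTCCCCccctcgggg
Nfkb2, first start, chr19:46304716-46304736, plus strand: ggggccgaaaGGGGCTTTCCc
Nfkb2, second start, chr19:46305449-46305478, plus strand: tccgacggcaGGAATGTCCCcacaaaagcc
Nfkb2, the third start, chr19:46305695-46305724, plus strand: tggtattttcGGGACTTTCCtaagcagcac
The Rel match lay 92 to 82 bases before its start. The Nfkb2 matches lay 39 to 29 and 11 to 2 bases before the first start, 236 to 227 before the second and 225 to 216 before the third. The Rela window held no match.

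The libraries held 20033154 to 45892308 exonic counts, and the members were covered by 711 (Relb) to 39233 (Nfkb1) counts per library. The third KO library at Pam3 8 h stood apart, where 12263 genes had a count, while each other library had 16097 to 18039 such genes, and differences between groups at that time are given without it as well. N4bp1 was lower in KO than in WT at all 9 conditions, by -0.78 (Pam3 8 h, -0.85 without that library) to -1.70 (R837 4 h) on the log2 scale, and its transcript was not absent, with 36.2 ± 5.28 counts scaled per 1000000 (CPM) in untreated KO against 64.7 ± 1.02 in untreated WT (SD, n = 3). The 7 macrophage markers summed to 16400 to 27100 CPM in WT and 14400 to 22700 CPM in KO. The 7 B and plasma cell markers summed to 16.5 to 104 CPM in WT and 73.9 to 166 in KO, with Igha at 0.329 to 15.0 CPM in WT and 25.2 to 89.9 in KO and Cd79a at 0 in 1 library of each genotype. The 4 stromal and endothelial markers summed to 19.4 to 36.9 CPM in WT and 7.62 to 20.9 in KO, the 5 dendritic cell markers to 3.61 to 43.3 and 4.92 to 36.5, the 5 neutrophil markers to 72.3 to 172 and 53.6 to 157, and the 4 T cell markers to at most 0.533 and 0.268. Counts of 4 Y-linked genes differed between libraries that share a group. Each WT group held a library at 160 to 204 CPM, a library at 55.6 to 69.3 CPM and a library at or below 0.159 CPM, whereas all 27 KO libraries were at or below 0.199 CPM. The middle WT libraries also held Xist at 92.0 to 130 CPM, against 16.9 to 26.5 in the highest, so both kinds of RNA were present in them. From replicate 1 to 3 the Y-linked level went from highest to lowest in the untreated and all R837 groups of WT. The Pam3 groups had other orders. What n counts is therefore libraries, and p-values measure the spread between them. The main tests did not match WT libraries by this level.

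**Figure D1:**
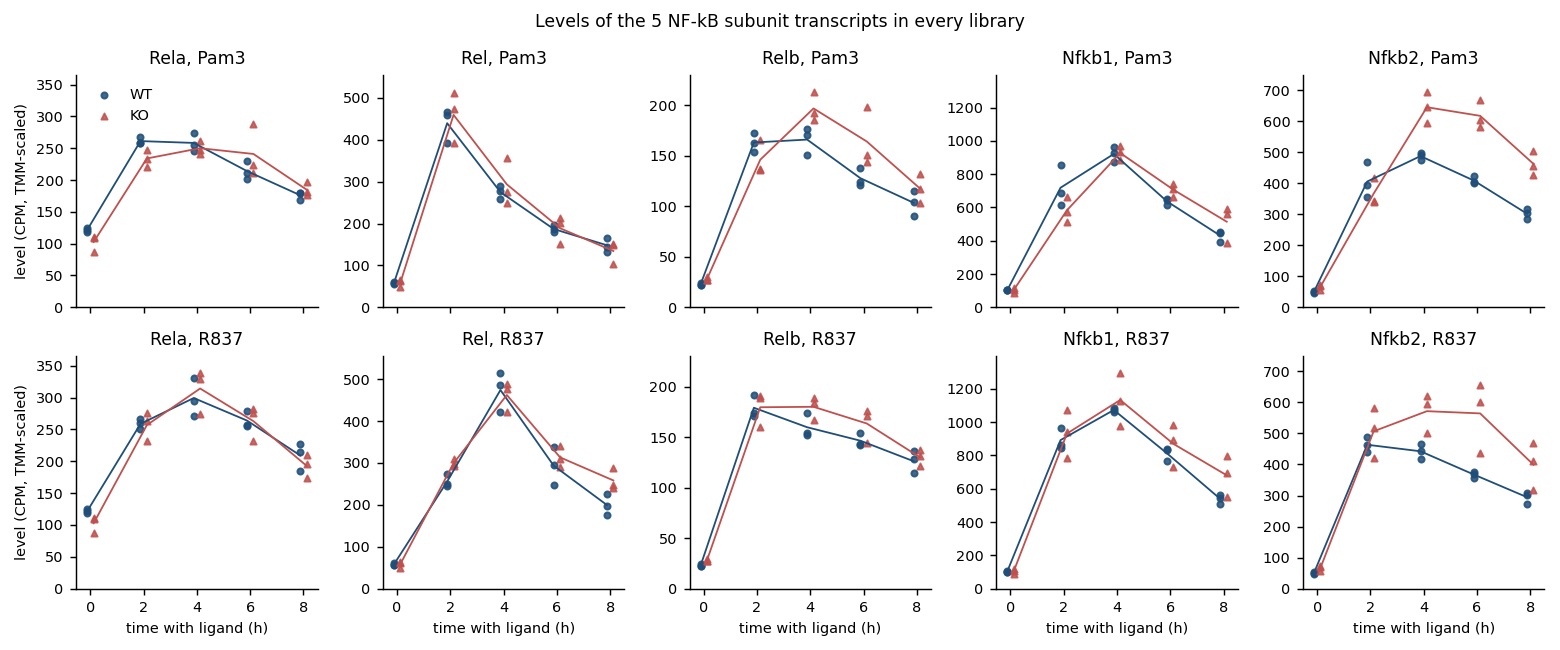
Level of each subunit in every library, in CPM after TMM scaling on a linear axis set for each gene, for WT and KO against hours of Pam3 or R837. In both genotypes the treated libraries of each gene lie above the untreated ones. Rela has the smallest rise relative to its untreated level, and Rel peaks at 2 h with Pam3 and at 4 h with R837.

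Per kilobase of exon, Rela was the most abundant subunit mRNA in untreated WT macrophages and Nfkb1 in all WT groups that received a ligand. The per-length level in untreated WT was 44.8 ± 1.13 for Rela, 24.9 ± 0.377 for Nfkb1, 15.2 ± 0.737 for Nfkb2, 10.3 ± 0.551 for Relb and 7.71 ± 0.306 for Rel, in CPM per kilobase (SD, n = 3 libraries). Rela encodes p65, the main transactivating subunit, and Rel encodes c-Rel, its closest relative. Summed over the 5 genes, the per-length level went from 103 ± 0.513 in untreated WT to 641 ± 24.2 at 4 h of R837, the highest of the WT groups. Lengths are the exon widths deposited with the counts, and for Nfkb1 that width (4124 bases) is well under the 12061 exon bases of all its annotated transcripts, so the order between genes depends on it.

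All 5 subunits rose in WT macrophages at every time of both ligands. The shares of all tested genes that rose were 22.1, 25.3, 26.8 and 26.3% at 2, 4, 6 and 8 h of Pam3 and 22.2, 26.4, 28.9 and 28.3% at the same times of R837. The median log2 change over the members was 2.84, 2.87, 2.49 and 2.07 with Pam3 and 2.98, 3.04, 2.69 and 2.39 with R837, where the median over all tested genes stayed between -0.06 and 0.03. These medians describe the set and carry no test.

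The transactivating subunits split into a small and a large response. Rela stood at 118.3, 122.2 and 124.4 CPM in the 3 untreated WT libraries. It stood at 266.9, 258.0 and 258.7 CPM after 2 h of Pam3 and at 271.7, 295.1 and 331.5 CPM after 4 h of R837. Every treated library was above every untreated one, and these changes were 1.10 ± 0.10 and 1.30 ± 0.10 (log2 ± SE, edgeR adjusted p = 1.24e-12 and 3.53e-15). At 8 h Rela was still higher, by 0.53 ± 0.10 with Pam3 (adjusted p = 1.52e-05) and 0.78 ± 0.10 with R837 (adjusted p = 5.78e-09). Across the 8 treated groups its change ran from 0.53 to 1.30, below that of each of the other subunits in the same group.

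Rel, the c-Rel gene, had the response that differed most between the ligands. Untreated WT libraries stood at 60.1, 57.1 and 55.6 CPM. With Pam3 the 2 h libraries stood at 458.9, 393.3 and 466.2 CPM, those of 4 h at 289.4, 257.6 and 277.8, those of 6 h at 195.4, 179.3 and 185.8, and those of 8 h at 133.0, 166.1 and 145.0. No library of a later time reached the 2 h range, so the level was highest at 2 h. With R837 the 2 h libraries stood at 248.6, 244.2 and 273.9 CPM, those of 4 h at 420.7, 486.8 and 514.5, those of 6 h at 247.9, 295.1 and 337.1, and those of 8 h at 176.3, 195.9 and 225.8. Here the 4 h libraries were above all others. The change from untreated was 2.93 ± 0.15 at 2 h of Pam3 (adjusted p = 7.26e-22) and 3.04 ± 0.15 at 4 h of R837 (adjusted p = 1.36e-22).

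Relb, which encodes the usual partner of p52, went from 24.1, 21.9 and 22.1 CPM in untreated WT to 163.1, 172.2 and 154.2 CPM at 2 h of Pam3, and to 191.8, 174.1 and 171.2 CPM at 2 h of R837. All 6 treated libraries lay far above the untreated ones, with changes of 2.84 ± 0.11 (adjusted p = 2.63e-25) and 2.98 ± 0.11 (adjusted p = 5.17e-26). It stayed between 2.19 and 2.98 above untreated, on the log2 scale, in all 8 treated WT groups.

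The precursor genes responded as strongly as Rel and Relb. Nfkb1, which encodes p105 and its product p50, stood at 102.0, 104.6 and 101.8 CPM in untreated WT and at 1073.8, 1087.6 and 1059.6 CPM at 4 h of R837, where it was highest. That change was 3.38 ± 0.14 (adjusted p = 1.8e-24), and the range over the WT groups was 2.07 to 3.38. Nfkb2, which encodes p100 and its product p52, stood at 52.1, 50.8 and 47.4 CPM in untreated WT and at 474.8, 490.5 and 497.3 CPM at 4 h of Pam3, a change of 3.28 ± 0.13 (adjusted p = 3.56e-25). Its range over the WT groups was 2.56 to 3.28, with no overlap between treated and untreated libraries.

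**Figure D2:**
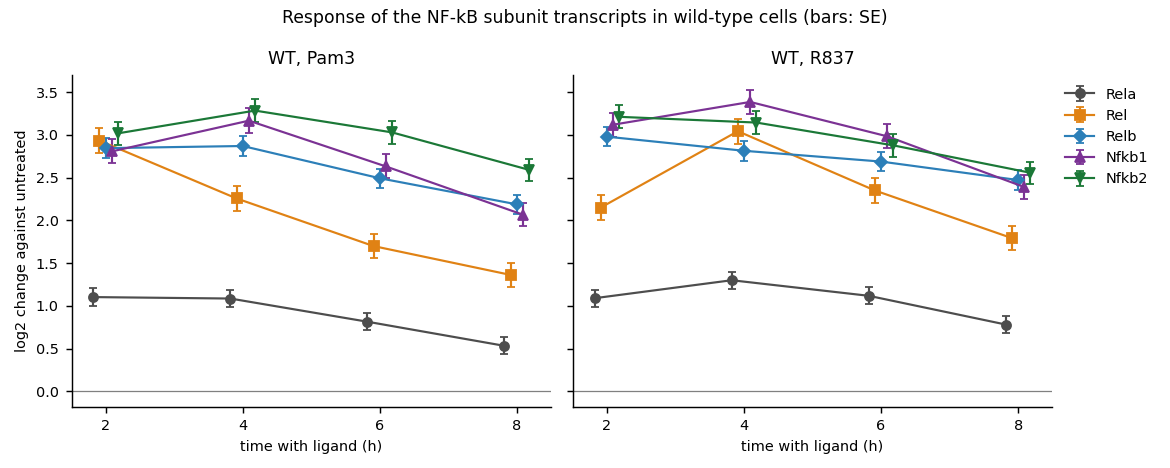
Change from untreated in WT macrophages (log2, points, with bars of 1 SE from the edgeR fit) for each subunit at 2, 4, 6 and 8 h of Pam3 and R837. Rela lies lowest throughout, between 0.53 and 1.30, and all 5 genes are lower at 8 h than at 2 h.

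All 5 subunits were lower at 8 h than at 2 h under both ligands in WT, where 24.4% of tested genes were lower with Pam3 and 23.2% with R837. With Pam3 the difference was largest for Rel, at -1.57 ± 0.14 (adjusted p = 2.77e-13), and lay between -0.43 (Nfkb2) and -0.74 (Nfkb1) for the others. With R837 it ran from -0.31 (Rela, adjusted p = 0.0102) to -0.73 (Nfkb1, adjusted p = 9.83e-06). The Nfkb2 call with Pam3 was lost without the second Pam3 2 h library (adjusted p = 0.0739). The Rela call with R837 was lost without the third library at 2 h (adjusted p = 0.056) or the first at 8 h (0.141), and the Rel call with R837 (-0.36, adjusted p = 0.0264) without any 1 of its libraries other than the third at 8 h, with adjusted p from 0.0553 to 0.191.

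Between neighbouring times Rel moved in opposite directions. From 2 to 4 h it fell with Pam3 by 0.68 ± 0.14 on the log2 scale (adjusted p = 8.07e-05) and rose with R837 by 0.89 ± 0.14 (adjusted p = 6.96e-07), in steps where 34.5% and 31.4% of tested genes changed in either direction. In the Pam3 step 2 of 5 members passed, Rel and Nfkb1, and in the R837 step Rel alone did. Nfkb1 rose in the Pam3 step by 0.36 ± 0.13 (adjusted p = 0.0292), a call lost without the first or the third 2 h library or the second or the third 4 h library (adjusted p from 0.0639 to 0.197). From 4 to 6 h Rel fell with Pam3 by 0.56 ± 0.14 (adjusted p = 0.00214) and with R837 by 0.69 ± 0.14 (adjusted p = 0.000179). In that step 17% and 16.3% of tested genes changed, and Nfkb1 passed with both ligands, Relb with Pam3. The Nfkb1 call with R837 (-0.40, adjusted p = 0.0282) was lost without any 1 of the 6 libraries (adjusted p from 0.0535 to 0.122), and the Relb call (-0.38, adjusted p = 0.00796) without the first library at 4 h or the second at 6 h (0.0667 and 0.0664). From 6 to 8 h, where 3.57% of tested genes changed with Pam3 and 9.65% with R837, Nfkb1 fell with R837 by 0.59 ± 0.13 (adjusted p = 0.0017). With Pam3 the Nfkb1 call of that step (-0.56, adjusted p = 0.00656) was lost without the first 8 h library (0.0649) and the Nfkb2 call (-0.44, adjusted p = 0.0292) without any 1 of its 6 libraries (0.0511 to 0.166). With R837 the Rel call (-0.56, adjusted p = 0.00405) was lost without the third 6 h library (0.06) or the first 8 h library (0.0662), and the Rela call (-0.34, adjusted p = 0.0229) without the same libraries (0.122 and 0.206).

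Set directly against each other in WT, the ligands differed in Rel at all 4 times. Rel was lower with R837 than with Pam3 at 2 h, by -0.78 ± 0.14 (adjusted p = 0.0001), and higher at 4 h by 0.79 ± 0.14 (adjusted p = 1.12e-05) and at 6 h by 0.65 ± 0.14 (adjusted p = 0.000229). At 2 h it was the only member that passed, with 4.78% of tested genes called in either direction, and likewise at 4 h, with 21.9% called. At 6 h 3 of 5 members passed against 22.7% of tested genes, the others being Nfkb1 (0.35 ± 0.13, adjusted p = 0.0458) and Rela (0.30 ± 0.10, adjusted p = 0.0224). At 8 h Rel passed alone, at 0.43 ± 0.14 (adjusted p = 0.0288), against 11.5% of tested genes. The Nfkb1 call at 6 h was lost without any 1 of its 6 libraries (adjusted p from 0.0577 to 0.13). The Rela call at 6 h was lost without the second or the third Pam3 library or the third R837 library (0.0625 to 0.108). The Rel call at 8 h was lost without the first or the third Pam3 library or the second or the third R837 library (0.0623 to 0.22). When WT libraries alone were fitted with the Y-linked level as a block, a choice made after seeing the data, Rel kept its call at all 4 times, with values from -0.78 to 0.79. It was not alone in that fit. Nfkb1 also passed at all 4 times (0.22 to 0.35), Rela at 4, 6 and 8 h and Relb at 6 and 8 h. There 12.7, 34.9, 37.3 and 25.5% of tested genes were called at 2, 4, 6 and 8 h.

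KO macrophages showed the same order in Rel. Its libraries stood at 393.3, 472.5 and 512.2 CPM at 2 h of Pam3 and at 297.1, 291.4 and 308.8 CPM at 2 h of R837, without overlap, a difference of -0.62 ± 0.14 (adjusted p = 0.0011). At 4, 6 and 8 h Rel was higher with R837 by 0.66, 0.73 and 0.94 (adjusted p = 0.000347, 0.000133 and 1.17e-06), and the last value was 1.03 (adjusted p = 5.82e-06) without the KO Pam3 library that stood apart. Among the other members Nfkb1 (0.68 ± 0.13, adjusted p = 0.000274) and Nfkb2 (0.47 ± 0.12, adjusted p = 0.00666) were higher with R837 at 2 h, so 3 of 5 members passed against 10.7% of tested genes. Rela passed at 4 h (0.33 ± 0.10, adjusted p = 0.0163), where 17.4% of genes were called. Nfkb1 passed at 8 h (0.40 ± 0.13, adjusted p = 0.0216, and 0.47 with 0.0251 without the library that stood apart), where 22.8% were called. Rel alone passed at 6 h, where 12.1% were called. The Nfkb2 call at 2 h was lost without the second or the third Pam3 or the third R837 library (adjusted p from 0.0528 to 0.115), the Rela call without the first or the third R837 library (0.0543 and 0.112), and the Nfkb1 call at 8 h without the second Pam3 or the first or the third R837 library (0.065 to 0.192).

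**Figure D3:**
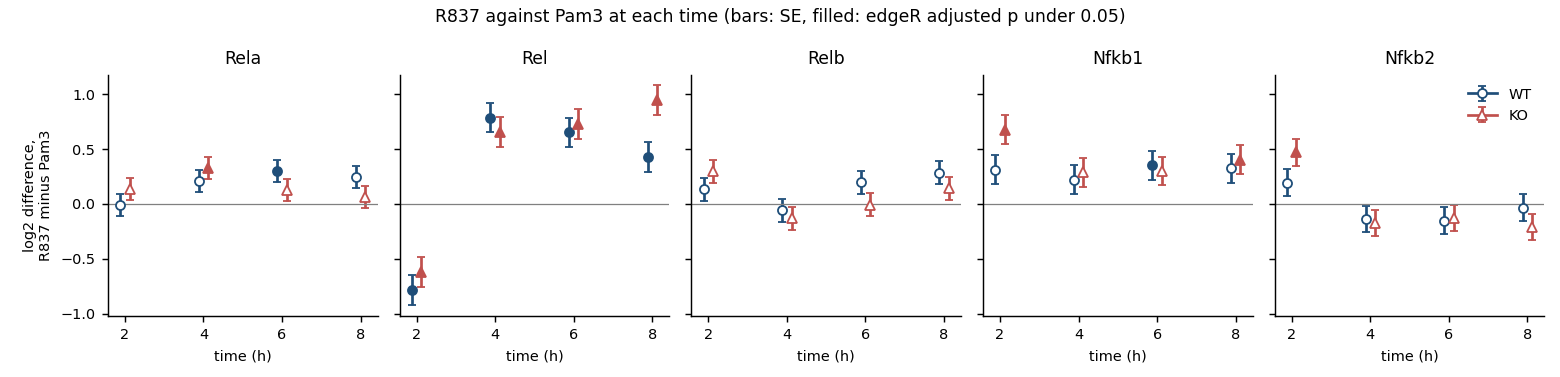
Difference between R837 and Pam3 at the same time (log2, with bars of 1 SE from the edgeR fit) for each subunit, in WT and KO. Rel lies below 0 at 2 h and above 0 at 4, 6 and 8 h in both genotypes.

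Between the genotypes, Nfkb2 was the subunit that differed most often, higher in KO at 4, 6 and 8 h of either ligand, while the other 4 had 1 call or none. In KO macrophages all 5 members rose over untreated KO cells at every time of both ligands, where 21.3, 26.6, 28.1 and 29.6% of tested genes rose with Pam3 at 2, 4, 6 and 8 h and 22.8, 25.5, 28.5 and 29.6% with R837. Without the KO Pam3 8 h library that stood apart, the 8 h changes with Pam3 were 0.80 (Rela) to 2.86 (Nfkb2), and all 5 passed. In bulk RNA, a change in RNA per cell and a change in the number of cells of a type cannot be told apart, here and in the comparisons that follow.

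The Nfkb2 libraries are given singly. Lack of overlap between 3 and 3 libraries is a description, here and below, since an exact permutation test of that size cannot go below p = 0.1. The share of all genes without overlap is not given here. Untreated WT libraries stood at 52.1, 50.8 and 47.4 CPM and untreated KO libraries at 69.7, 57.0 and 71.4, without overlap but short of the threshold (0.40 ± 0.12, adjusted p = 0.129). At 6 h of Pam3 WT stood at 421.8, 399.4 and 404.7 CPM and KO at 603.9, 580.3 and 667.7, also without overlap. At 8 h of Pam3 WT stood at 302.4, 285.5 and 317.1 CPM and KO at 504.4, 455.7 and 427.5, again without overlap. At 6 h of R837 WT stood at 377.0, 358.0 and 368.1 CPM and KO at 655.2, 438.0 and 601.0, where every KO library was higher but the second less so. The differences were 0.59 ± 0.12 (adjusted p = 0.000812), 0.62 ± 0.12 (adjusted p = 0.000185) and 0.62 ± 0.12 (adjusted p = 0.000162), and no single library left out removed these 3 calls. Without the library that stood apart the value at Pam3 8 h was 0.66 (adjusted p = 0.000395).

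Nfkb2 also passed at 4 h of Pam3 (0.40 ± 0.12, adjusted p = 0.0339), at 4 h of R837 (0.37 ± 0.12, adjusted p = 0.0399) and at 8 h of R837 (0.44 ± 0.12, adjusted p = 0.0086), and these calls were less firm. WT stood at 474.8, 490.5 and 497.3 CPM and KO at 694.9, 594.7 and 645.7 at 4 h of Pam3. At 4 h of R837 WT stood at 443.7, 419.0 and 465.2 CPM and KO at 595.6, 500.3 and 619.9. At 8 h of R837 WT stood at 301.4, 308.5 and 273.8 CPM and KO at 468.2, 317.6 and 412.0. In none of the 3 did the genotypes overlap, and the second KO library was the lowest of its group in each. The Pam3 4 h call was lost without any 1 of KO replicates 1 and 3 and WT replicates 1, 2 and 3 (adjusted p from 0.0555 to 0.188), the R837 4 h call without any 1 of the same 5 numbers of its own groups (0.0585 to 0.171), and the R837 8 h call without KO replicate 1 (0.128). At 2 h the genotypes overlapped, with differences of -0.15 ± 0.12 for Pam3 (adjusted p = 0.726) and 0.13 ± 0.12 for R837 (adjusted p = 0.76).

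Relb was higher in KO at 6 h of Pam3, with 138.3, 121.2 and 124.0 CPM in WT and 143.6, 150.3 and 198.6 in KO, a difference of 0.36 ± 0.11 (adjusted p = 0.0237). The third KO library lay far above the other libraries, and without it the difference was 0.20 (adjusted p = 0.384). The call was also lost without WT replicate 2 (0.108) or 3 (0.0919). Nfkb1, Rel and Rela passed at none of the 9 conditions, and their differences between genotypes ran from -0.30 (Nfkb1, Pam3 2 h, SE 0.13) to 0.37 (Rel, R837 8 h, SE 0.14, adjusted p = 0.0514). Nfkb1 passed without KO replicate 2 at Pam3 8 h (0.42, adjusted p = 0.0159) and at R837 8 h (0.47, adjusted p = 0.0169), and Rel without WT replicate 3 at R837 8 h (0.47, adjusted p = 0.0268).

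Read against all genes, no member passed in untreated cells, at 2 h of Pam3 or at 2 h of R837, where 0.882, 1.43 and 2.69% of tested genes were called in either direction. With Pam3, 1 of 5 members passed at 4 h, 2 of 5 at 6 h and 1 of 5 at 8 h, against 6.43, 7.99 and 23.9% of tested genes. With R837, 1 of 5 members passed at each of 4, 6 and 8 h, against 10.4, 16.5 and 15.9%. At 8 h of Pam3 the members' share was below that of all genes in this fit, and the median difference over the 5 members was 0.18 (all tested genes, -0.05). Without the library that stood apart 1 of 5 members passed there, as higher, where 7.95% of tested genes were higher and 8.98% lower. With only the 2 groups compared 3.54% of tested genes were called, so this order changes with the fit.

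The markers and the Y-linked counts differed between the genotypes as well. Y-linked RNA stood at 55.6 to 204 CPM in 18 WT libraries and at or below 0.199 CPM in every KO library. In fits of all libraries, a difference by genotype and a difference by sex or source of the cells therefore cannot be told apart. At 6 and 8 h of Pam3 the B and plasma cell markers summed to 20.8 to 63.7 and 16.5 to 59.7 CPM in WT and to 77.9 to 115 and 85.7 to 95.5 CPM in KO. At 6 h of R837 they summed to 34.5 to 101 CPM in WT and 90.4 to 124 in KO. Of the 7 markers Igha and Jchain passed as higher in KO at all 3 conditions. The macrophage markers summed to 19400 to 22300 CPM in WT and 16400 to 18400 in KO at 6 h of Pam3, to 22800 to 27100 and 20300 to 22700 at 8 h of Pam3, and to 21900 to 23700 and 17700 to 20800 at 6 h of R837. These sums did not overlap, and 2, 4 and 3 of the 7 macrophage markers passed as lower in KO. The neutrophil markers did not overlap at 6 h of R837, with 136 to 172 CPM in WT and 74.8 to 118 in KO. S100a9 passed as lower there (-0.84 ± 0.23, edgeR adjusted p = 0.00888). Of the 5 dendritic cell markers Dpp4 passed as lower there too (-1.21 ± 0.35, edgeR adjusted p = 0.0108). The sums of the dendritic cell markers overlapped, with 21.9 to 43.3 CPM in WT and 26.1 to 36.5 in KO. The stromal and endothelial markers were lower in KO, with 3 of 4 passing at 6 h and 3 of 4 at 8 h of Pam3 and 1 of 4 at 6 h of R837. At Pam3 6 h, Pam3 8 h and R837 6 h, 7.99, 23.9 and 16.5% of all tested genes were called in either direction. At Pam3 8 h and R837 6 h, 11.4 and 6.76% were called as higher in KO, and the marker counts above are each of 1 direction. Without the library that stood apart, 4 of 7 macrophage and 3 of 4 stromal and endothelial markers were lower at Pam3 8 h. Igha and Jchain were still higher there, where 8.98% of tested genes were lower and 7.95% higher. The part of these markers in the Nfkb2 difference was not tested. With only the 36 libraries without Y-linked counts, an alternative chosen after seeing the data that leaves 1 WT library in each condition, the Nfkb2 difference was 0.55 at 6 h and 0.61 at 8 h of Pam3 and 0.62 at 6 h of R837. None of these passed (adjusted p = 0.363, 0.129 and 0.106), in fits where 0.92, 3.71 and 5.35% of all tested genes were called, and the lone WT library is assumed to vary as the other groups do.

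**Figure D4:**
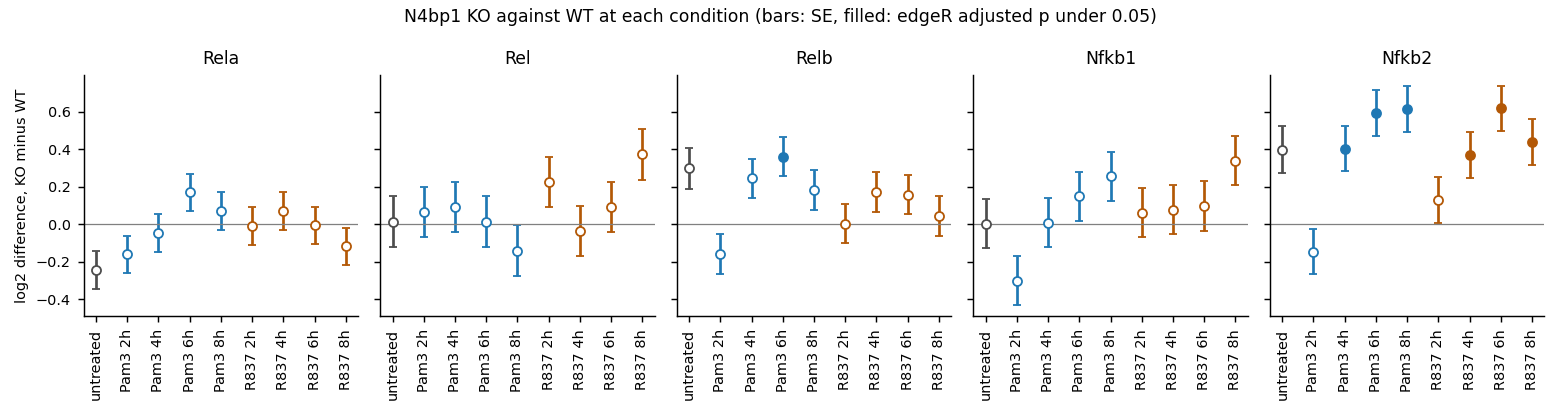
Difference between KO and WT (log2, with bars of 1 SE from the edgeR fit) for each subunit in the 9 conditions. Nfkb2 lies between 0.37 and 0.62 from 4 to 8 h of both ligands and near 0 at 2 h. Its untreated difference lies within the same span but did not pass.

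Whether the response itself differed between genotypes was tested by the interaction of genotype and ligand over the 4 times. With Pam3, Nfkb2 passed (adjusted p = 0.0134) and was 1 of 5 members, where 4.64% of tested genes passed. Its rise over untreated was lower in KO than in WT at 2 h by -0.54 ± 0.17 and higher at 6 and 8 h by 0.20 ± 0.17 and 0.22 ± 0.17 (0.25 at 8 h without the library that stood apart), and none of the single times passed on its own, where 0.0401, 0.387, 1.1 and 4.47% of tested genes passed at the 4 times. No member passed at a single time of R837 either, where 0.0935, 3.14, 6.53 and 3.27% of tested genes did. The call was lost without WT replicate 2 at 2 h (adjusted p = 0.119) and without KO replicate 2 (0.0789) or 3 (0.0857) at 2 h. It was 0.0143 without the KO Pam3 8 h library that stood apart. With R837 no member passed by edgeR (Nfkb2, adjusted p = 0.431), where 7.47% of tested genes did.

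The makeup of the 5 mRNAs shifted from Rela toward the precursors. Each share is a subunit's part of the summed per-length level, so it needs no scaling between libraries, and it is given as a description, with no test. In WT, Rela made up 43.5 ± 1.25% of untreated levels (SD, n = 3) and 16.4 to 20.2% in the treated groups, while Nfkb1 went from 24.2 ± 0.284% to 31.9 to 40.7%. Nfkb2 went from 14.8 ± 0.654% to 21.0 to 28.2%. Relb went from 9.99 ± 0.523% to 11.3 to 15.0%, and Rel, at 7.49 ± 0.276% untreated, was highest at 2 h of Pam3 with 11.3 ± 1.92% and lowest at 6 h of Pam3 with 5.69 ± 0.0153%.

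In KO the Nfkb2 share was higher already without ligand, at 19.3 to 19.5% in the 3 libraries against 14.1 to 15.4% in WT. At 6 h of Pam3 it was 33.5 to 35.0% in KO and 27.9 to 28.7% in WT, and at 8 h 32.1 to 37.3% and 26.9 to 28.6%. It was 26.5 to 30.3% in KO and 21.2 to 23.0% in WT at 6 h of R837. The ranges did not overlap there or at 4 h of either ligand, but they did at 2 h of both ligands and at 8 h of R837. Without the KO Pam3 8 h library that stood apart, the KO share at that time was 36.2%. Rela made up 36.5 ± 0.924% of untreated KO levels, below the WT range of 42.2 to 44.7%.

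**Figure D5:**
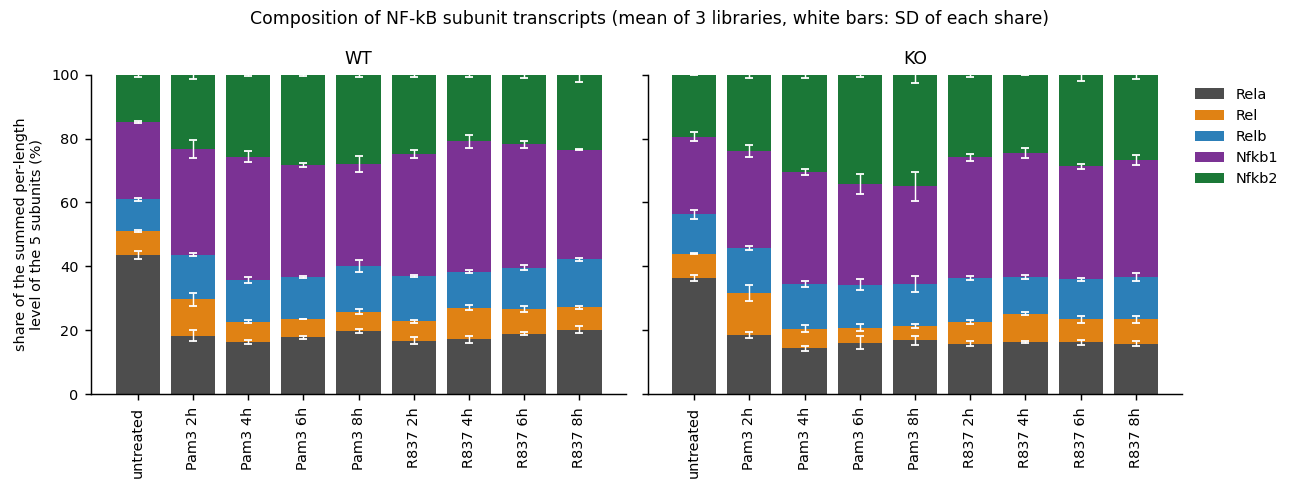
Share of each subunit in the summed per-length level of the 5 genes (percent, mean of 3 libraries, with white bars of 1 SD) in the 18 groups. Rela takes 43.5% in untreated WT and 16.4 to 20.2% in treated WT groups, and Nfkb2 takes 34.8% in KO against 28.0% in WT at 8 h of Pam3.

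Ranked over all 18 groups, each subunit was lowest in the untreated groups, and its library ranges did not reach those of the lowest treated group. The top group was KO R837 4 h for Nfkb1 (1130 CPM) and Rela (314 CPM), KO Pam3 4 h for Nfkb2 (645 CPM) and Relb (197 CPM), and WT R837 4 h for Rel (474 CPM). Most neighbours in these orders did not differ beyond their spread. The library ranges overlapped in 16 of 17 neighbouring pairs for Nfkb1, 15 for Rela and Relb, 14 for Nfkb2 and 13 for Rel.

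Over the 18 group means of log2 CPM, Nfkb1 and Relb ran most alike (Pearson r = 0.98) and Nfkb2 and Rel least (r = 0.796). The groups share untreated libraries and scaling, so these values describe and carry no p. Among 9236 genes with a mean of at least 5 CPM, the genes most like Nfkb1 were Ezr (r = 0.989), Ch25h (0.986) and Tlr2 (0.982), which encode the membrane linker ezrin, cholesterol 25-hydroxylase and the receptor that senses Pam3. Nfkb2 ran most like Src (0.988), a tyrosine kinase gene, Exoc3l4 (0.984) and Cd40 (0.979), a receptor of the tumour necrosis factor family. The genes most like Relb were Icosl (0.986), a ligand for T cell costimulation, the adhesion gene Icam1 (0.982) and Tlr2 (0.98). For Rel they were Gm12183 (0.978), whose reads as a processed pseudogene may be shared with its parent gene, the RNA helicase gene Ddx5 (0.96) and Skil (0.956). Rela ran most like Mtmr14 (0.967), Cpne2 (0.961) and Dpf2 (0.954). By rank correlation 1 of the 3 genes stayed among the top 3 for Nfkb2, Rel and Rela each, and 0 for Nfkb1 and Relb.

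The listed IkB-family genes and Tnfaip3 had larger median changes than the subunits, a difference that was not tested. All 7 on the list (IkB genes, Bcl3 and the deubiquitinase gene Tnfaip3) rose in WT at 2 h of Pam3 and at 4 h of R837, with medians of 5.18 and 5.04 on the log2 scale, where 22.1 and 26.4% of all tested genes rose. At 2 h of Pam3, Nfkbia, which encodes IkB alpha, went from 44.4 ± 5.42 to 1610 ± 49.7 CPM (5.18 ± 0.09, adjusted p = 1.42e-38). Nfkbie went from 8.63 ± 1.12 to 420 ± 16.6 CPM (5.61 ± 0.13) and Nfkbiz from 16.3 ± 1.1 to 1000 ± 83.5 CPM (5.94 ± 0.14). In the KO against WT comparison 4 of 7 were higher at 8 h of Pam3, led by Tnfaip3, at 648 ± 50.5 CPM in WT and 1430 ± 299 in KO (1.15 ± 0.13, adjusted p = 6.95e-09), with Nfkbia (0.49 ± 0.08) and Nfkbib (0.41 ± 0.12). Of all tested genes 11.4% were higher in KO there. Without the library that stood apart 4 of 7 were higher, with Tnfaip3 at 1.09, Nfkbia at 0.55 and Nfkbib at 0.49, where 7.95% of genes were. At 6 h of R837, where 6.76% of all tested genes were higher in KO, 2 of 7 were, Nfkbie (0.46 ± 0.10, adjusted p = 0.000864) and Nfkbiz (0.34 ± 0.11, adjusted p = 0.0283). In untreated cells, where 0.514% of tested genes were higher in KO, 2 of 7 were, Nfkbie at 14.5 ± 0.414 against 8.63 ± 1.12 CPM (0.76 ± 0.11, adjusted p = 4.87e-05) and Nfkbia (0.41 ± 0.08, adjusted p = 0.00259).

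The IkB kinase complex and its activator moved less and in both directions. At 2 h of Pam3 in WT, 3 of 6 genes rose and 2 fell (median 0.20), where 22.1% of all tested genes rose and 18.9% fell, with Tab2 up by 1.11 ± 0.11 and Tab1 and Ikbkg at -1.58 ± 0.19 and -0.59 ± 0.10. Tab1 and Tab2 encode adaptors of the kinase TAK1, and Ikbkg encodes the scaffold NEMO. In KO against WT, 2 of 6 were higher at 8 h of Pam3, Ikbkb (115 ± 2.79 against 166 ± 28.4 CPM in KO, 0.53 ± 0.11, adjusted p = 0.000357) and Ikbkg (0.28 ± 0.10, adjusted p = 0.0299), where 11.4% of all tested genes were. Without the library that stood apart Ikbkb passed (0.49, adjusted p = 0.0037) and Ikbkg did not (0.17, adjusted p = 0.278). For R837 at 6 h, with 6.76% of all tested genes higher, 3 of 6 were, Ikbkg, Ikbkb and Map3k7 (0.35, 0.32 and 0.25, adjusted p = 0.00715, 0.0333 and 0.0479). None passed in untreated cells.

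In the non-canonical pathway the receptor gene Cd40 rose at 2 h of Pam3 and the kinase gene Map3k14 fell at 4 h of R837. At 2 h of Pam3 in WT, 5 of 7 genes rose and 1 fell, where 22.1% of all tested genes rose and 18.9% fell. Cd40 went from 2.73 ± 0.24 to 399 ± 66.0 CPM (7.19 ± 0.24, adjusted p = 5.47e-27), and Birc3 and Traf3, which encode a ubiquitin ligase and an adaptor that restrain NIK, rose by 2.67 ± 0.10 and 1.82 ± 0.12. At 4 h of R837, where 27.4% of all tested genes fell, the gene that fell was Map3k14, from 31.0 ± 1.22 to 6.27 ± 0.719 CPM (-2.31 ± 0.14, adjusted p = 4.78e-19). Map3k14 encodes NIK, the kinase that drives p100 processing, and it was the 1 gene of 7 that was higher in untreated KO cells, at 70.7 ± 5.37 against 31.0 ± 1.22 CPM (1.19 ± 0.13, adjusted p = 2.82e-08), where 0.514% of tested genes were. At 8 h of Pam3 4 of 7 were higher in KO, led by Cd40 at 691 ± 41.9 against 256 ± 22.4 CPM (1.43 ± 0.18, adjusted p = 9.56e-08), with Birc2 (0.69 ± 0.15) and Birc3 (0.34 ± 0.10), and 11.4% of all tested genes were. Without the library that stood apart 3 of 7 were, with Cd40 at 1.46 and Birc2 at 0.61, while Birc3 no longer passed (0.27, adjusted p = 0.0742). For R837 at 6 h 2 of 7 were, against 6.76% of all tested genes, namely Birc2 (0.80 ± 0.15, adjusted p = 5.65e-05) and Birc3 (0.35 ± 0.10, adjusted p = 0.0064), while Cd40 stood at 708 ± 104 CPM in KO and 712 ± 71.7 in WT. Of the 5 genes that act on subunits in the nucleus, Ep300 fell at 2 h of Pam3 (-0.996 ± 0.236, adjusted p = 0.000628), and none passed between genotypes in untreated cells, at Pam3 8 h or at R837 6 h. Without the library that stood apart Commd1, which limits RelA in the nucleus, passed as higher in KO at Pam3 8 h (0.47, adjusted p = 0.00407).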

How the data were processed

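Total RNA of 54 macrophage cultures was made into TruSeq v2 libraries and read on a HiSeq4000 as single-end reads, per the labels' protocols. The authors deposited for each library the exonic read count per gene, an exon width and an RPKM value. GSNAP and GRCm38 are named in the submitters' processing notes, and the sources used here do not give versions or the counting tool. Counts were used for all tests. The deposited RPKM values matched counts over width over a total 1.093 to 1.115 times the summed counts, and were not used further.

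Genes passing edgeR's low-count filter (minimum count 10, minimum total 15) were scaled by TMM and fitted with the edgeR 4.0.16 quasi-likelihood model in R 4.3.3, with all 18 groups in 1 fit. Benjamini-Hochberg adjustment ran over all 14970 tested genes within each of 51 comparisons, and "passed", "rose", "fell" and "called" mean an adjusted p under 0.05. The scripts were tested on simulated counts. Alternatives were RLE scaling, no filter and a stricter one (minimum count 50), DESeq2 1.42.0, limma 3.58.1 voom, the compared groups alone, each library left out, and a block by replicate number. A pair that uses the level of 4 Y-linked genes was added after seeing the data. CPM are TMM-scaled counts scaled per 1000000, and per-length levels divide CPM by the deposited exon width. Counting error covers reads only, since no molecular identifiers are described.

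The members and gene lists were chosen with earlier results of these data known. Named genes are the 5 subunits, N4bp1, the 3 genes of each pathway list with the smallest p in a comparison described, and the 3 genes with the highest Pearson correlation to each subunit. Libraries of a group differed by more than counting error in all pairs (chi-square per degree of freedom 6.62 to 89.6), so none was taken for a duplicate.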

Additional observations from a re-analysis of the deposited data

Results flagged for a closer look

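The response of Nfkb2 to Pam3, taken over the 4 times, differed between N4bp1 knockout and wild-type macrophages by the test of the difference itself (edgeR adjusted p = 0.0134). The log2 difference of responses was -0.54 ± 0.17 at 2 h, 0.01 ± 0.17 at 4 h, 0.20 ± 0.17 at 6 h and 0.22 ± 0.17 at 8 h (± SE). The adjusted p was 0.119 without the second wild-type library at 2 h, 0.0789 and 0.0857 without the second and the third knockout libraries at 2 h, and 1 with only the libraries without Y-linked counts. The cause was not tested.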

How the results depend on the processing

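No difference that passed in either the reported fit or an alternative changed sign, while 112 of 3530 alternative values that passed in neither did. All 5 subunits passed against untreated cells in both genotypes under every alternative run (560 in WT, 520 in KO). Of the genotype differences 24 of 630 alternatives ended a call and 7 made one, and of the ligand differences 13 and 18 of 280 in WT and 9 and 10 of 260 in KO did. Steps between times in WT had 34 and 31 of 560, and the interactions over 4 times 4 and 1 of 370. These totals include tests with no call in the reported fit, which had none to lose, and most of the 45 genotype tests were such. The part of the reported calls that ended was therefore larger than these totals give. The number of subunits called moved by over 1.5 times as follows, with the reported number in brackets; smaller moves are not listed. With RLE scaling, which moved the median of all genes by at most 0.046, KO against WT gave 0 (1) at R837 4 h and the Pam3 step from 2 to 4 h 1 (2). With no filter it gave 1 (0) untreated and 3 (1) at R837 8 h, R837 against Pam3 gave 2 (1) at 8 h in WT and 2 (1) at 6 h in KO, and the Pam3 interaction 2 (1). With only the groups compared, KO against WT gave 1 (2) at Pam3 6 h and 0 (1) at R837 8 h, and R837 against Pam3 2 (1) at 4 h in WT and 1 (2) at 8 h in KO, and the steps 5 (3) for Pam3 4 to 6 h and 3 (1) for R837 2 to 4 h. DESeq2 gave 2 (1) for R837 against Pam3 at 8 h in WT and 1 (2) for the Pam3 step from 2 to 4 h. The replicate block gave 2 (1) for KO against WT at R837 8 h, 2 (1) and 4 (1) for R837 against Pam3 at 2 and 8 h in WT and 2 (1) at 6 h in KO, and the same 5 (3) and 3 (1) for those steps, and ended no call. The numbers were not taken to pair the libraries, since the labels do not say so and correlations of same-numbered deviations ran from -0.718 to 0.669 within a genotype and from -0.298 to 0.252 between genotypes, although 15 of 27 WT and 16 of 27 KO libraries correlated best with their own number, where equal odds for the 3 numbers give 9, a hint from the data and not the design. With only the libraries without Y-linked counts, KO against WT gave 0 at 4, 6 and 8 h of Pam3 (1, 2 and 1) and of R837 (1 each), and the Pam3 interaction 0 (1). With the Y-linked level as a block, R837 against Pam3 in WT gave 2, 3 and 4 (1 each) at 2, 4 and 8 h and 4 (3) at 6 h, and the steps 5 (3) and 5 (2) for Pam3 4 to 6 h and 6 to 8 h and 3 (1), 4 (2) and 5 (3) for the R837 steps in order. Leaving out each library gave 0 to 1 (1) for KO against WT at Pam3 4 h, R837 4 h and the Pam3 interaction, 1 to 2 at Pam3 6 h (2) and 8 h (1), and 0 to 2 (1) at R837 8 h. It gave 1 to 2 (3) and 0 to 3 (1) for R837 against Pam3 at 6 and 8 h in WT, and 1 to 3 (2), 1 to 2 (1) and 1 to 2 (2) at 4, 6 and 8 h in KO. For the steps it gave 1 to 3 (2) for Pam3 2 to 4 h, 0 to 1 (2) for Pam3 6 to 8 h, 1 (2) and 1 to 3 (3) for R837 4 to 6 h and 6 to 8 h, and 3 to 5 (5) for R837 8 h against 2 h. The share of all genes called moved by over 1.5 times in 112 combinations of comparison and alternative. It was 3.54% with only the groups compared, against 23.9%, for KO against WT at Pam3 8 h, and 15.5% without the third WT library of that time. The shares of subunits moved beyond their SD in 88 of 90 cases when length was left out. The causes were not tested.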
